A study of Mus musculus with 13 samples.

Results

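The collagen genes of the mouse were examined in RNA-seq counts from whole lower incisors. Members were all protein-coding genes whose symbol has the form Col, a type number, the letter a and a chain number. This gave 44 of the 34709 genes in the deposited count table, of 27 collagen types on 15 chromosomes. The rule for choosing them uses symbols and no measured value, but it was set with earlier results of these data known. They fall into 11 fibrillar collagens, 8 of the basement membrane zone (types IV, XV and XVIII), 9 FACITs, which sit on the surface of fibrils, 4 transmembrane collagens and 12 others (types VI, VII, VIII, X, XXVI and XXVIII).

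The incisors came from male mice on postnatal day 5. They fell into 3 groups by genotype: 3 libraries of VDRgem mutants, 5 of VDR-null mutants and 5 labelled control. VDRgem is a vitamin D receptor mutant known to answer synthetic gemini ligands and not the natural hormone. In VDR-null mice the receptor is known to be non-functional. Strain, diet, the alleles and the animal behind each library are not given in the labels, so the p-values cover only variation among these libraries, which may be partly technical. Total counts ran from 20405188 to 87783466 per library. No 2 libraries agreed within sampling noise (chi-square of at least 15.2 for each degree of freedom).

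Collagens are built from 3 chains wound into a triple helix. In the endoplasmic reticulum the chains are hydroxylated and folded, and outside the cell they are trimmed, assembled and crosslinked. Type I collagen is the main organic component of dentin and bone, type III is abundant in the dental pulp and the soft connective tissue around the tooth, and type IV forms the sheet of basement membranes. Enamel itself is laid down without collagen, although the enamel epithelium rests on a basement membrane and holds transmembrane type XVII collagen.

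Start-site windows are shown for genes that carry the results below: Col3a1 and Col16a1, which were higher in VDRgem than in both other groups, and the neighbours Col4a1 and Col4a2, whose levels moved together. Each window runs from 250 bases before to 50 bases after the start, 5′ to 3′ on the gene's own strand, from RefSeq on GRCm38.p6. Capitals mark short promoter motifs on either strand. These are TATAAA for the TATA motif, CCAAT for the motif of that name, and GGGCGG for the GC box.
Col3a1 (chr1:45311288-45311587, plus strand): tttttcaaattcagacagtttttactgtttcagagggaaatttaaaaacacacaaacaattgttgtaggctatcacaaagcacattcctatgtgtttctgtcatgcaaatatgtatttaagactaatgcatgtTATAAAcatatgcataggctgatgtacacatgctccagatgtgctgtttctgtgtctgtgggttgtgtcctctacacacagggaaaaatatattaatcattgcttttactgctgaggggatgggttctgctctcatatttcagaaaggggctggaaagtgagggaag
Col16a1 (chr4:130047590-130047889, plus strand): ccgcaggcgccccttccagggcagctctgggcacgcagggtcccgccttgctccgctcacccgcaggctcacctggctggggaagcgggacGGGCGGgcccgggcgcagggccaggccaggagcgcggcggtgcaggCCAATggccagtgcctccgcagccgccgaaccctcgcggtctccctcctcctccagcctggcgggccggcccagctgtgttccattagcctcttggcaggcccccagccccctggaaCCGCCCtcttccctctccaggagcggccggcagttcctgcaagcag
Col4a1 (chr8:11312777-11313076, minus strand): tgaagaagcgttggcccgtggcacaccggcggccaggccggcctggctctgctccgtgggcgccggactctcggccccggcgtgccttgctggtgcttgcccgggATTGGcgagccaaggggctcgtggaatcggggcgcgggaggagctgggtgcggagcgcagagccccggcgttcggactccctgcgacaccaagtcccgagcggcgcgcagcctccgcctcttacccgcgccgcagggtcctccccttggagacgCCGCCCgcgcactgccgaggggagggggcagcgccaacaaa
Col4a2 (chr8:11312555-11312854, plus strand): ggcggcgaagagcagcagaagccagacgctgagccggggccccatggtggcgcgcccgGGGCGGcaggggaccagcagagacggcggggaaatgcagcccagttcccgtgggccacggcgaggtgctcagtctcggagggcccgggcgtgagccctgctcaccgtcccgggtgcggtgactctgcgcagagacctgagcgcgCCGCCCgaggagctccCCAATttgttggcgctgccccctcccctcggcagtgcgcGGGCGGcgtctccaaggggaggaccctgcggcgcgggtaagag

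The Col3a1 window was AT-rich, with 37.7% G and C, and held TATAAA 117 bases before the start and no match to the other letters. The Col16a1 window had 74.3% G and C, with CCAAT once and the GC box at 2 places. Col4a1 and Col4a2 are read in opposite directions from starts that lie side by side, and their windows share 78 bases. Their annotated exons overlap by 22 bases.

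Windows were found for 35 members, 38 in all, and 9 members, among them Col1a1, Col2a1 and Col5a2, had none. GGGCGG on either strand stood in 60.5% of the members' windows, against 35.7% of all 32851 windows. TATAAA stood in 13.2% against 13.6%, and CCAAT in 34.2% against 37.4%. AGGTCA repeated in tandem with 3 bases between, a textbook form of the vitamin D response element, had no exact match in the members' windows and matched 0.00609% of all windows. Its half-site AGGTCA alone, which is part of the repeat, stood in 21.1% against 16.3%. These are letter matches only and show no binding.

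All 44 members passed the filter on low counts. Exons of 10 members overlap another gene on the opposite strand, by 563 bases in Col4a3, 289 in Col6a4, 234 in Col9a3, 212 in Col5a1 and fewer than 100 in the others, Col4a1, Col4a2, Col6a6, Col10a1, Col15a1 and Col22a1. The strand setting of the counting is not given in the sources used here, so whether reads of those neighbours were counted is not known. Exons of Col3a1, Col7a1 and Col20a1 share bases with another gene on the same strand. Levels are given as CPM, counts scaled to library size after TMM normalization. Levels of different genes are compared only per kilobase of the transcript with the longest coding sequence. On that scale in control the order began with Col1a1 at 14326 ± 2882 CPM per kb (SD, n = 5), Col1a2 at 5346 ± 704 and Col3a1 at 1979.8 ± 221. Then came Col11a2 at 636 ± 168, Col5a2 at 537 ± 48.7, Col11a1 at 252 ± 37.5, Col6a1 at 231 ± 9.65 and Col6a2 at 224 ± 12.6 CPM per kb. The SD ranges of Col11a2 and Col5a2 overlapped, as did those of Col11a1, Col6a1 and Col6a2. The lowest were Col4a4 at 0.0843 ± 0.0414, Col19a1 at 0.0353 ± 0.0279 and Col4a3 at 0.0310 ± 0.0164 CPM per kb. Col16a1 was placed 6 of 44 in VDRgem, 12 in VDR-null and 11 in control.

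**Figure D1:**
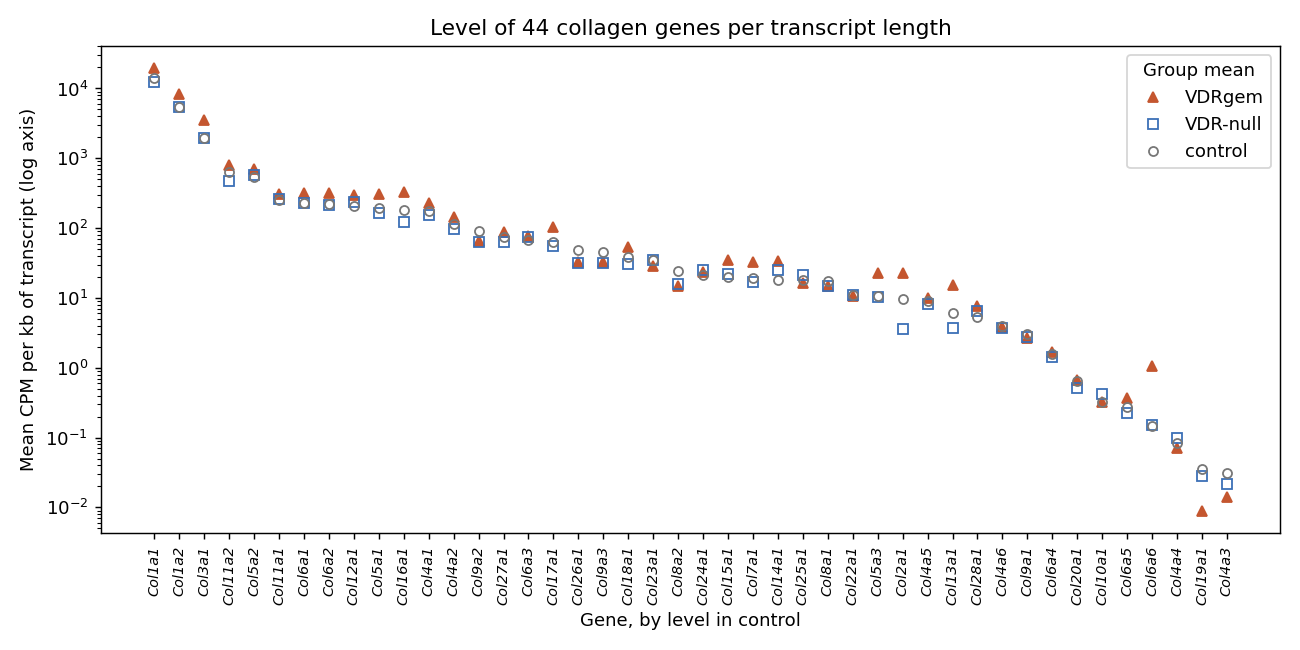
Mean level of each of the 44 collagen genes per group, with genes ordered by their level in control. The axis is mean CPM per kilobase of transcript on a log scale. Each gene has 1 point per group mean, coloured for VDRgem (3 libraries), VDR-null (5) and control (5). Type I and type III chains lie far above the rest, and Col4a3, Col4a4 and Col19a1 lie lowest.

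Collagen transcripts took up a large part of these libraries. Their share of all counts was 19.4%, 18.5% and 19.4% in VDRgem, against 9.12%, 14.048%, 17.8%, 12.1% and 13.6% in VDR-null and 17.1%, 15.024%, 13.9%, 17.1% and 11.9% in control. All 3 VDRgem libraries lay above every other library, while VDR-null and control overlapped. The means were 19.1% ± 0.518 in VDRgem (SD, n = 3), 13.3% ± 3.15 in VDR-null (n = 5) and 15.01% ± 2.198 in control (n = 5), a description with no test. Without Col1a1, Col1a2 and Col3a1 the remaining members held 2.61% of the counts in VDRgem, 2.03% in VDR-null and 2.197% in control.

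Against control, 11 members were higher and 1 was lower in VDRgem at an adjusted p under 0.05, where 4.8% of all 17837 genes tested were higher and 3.82% lower, 8.62% in all. The median log2 fold change was 0.33 over the members and 0.00 over all genes. Of the 44 members, 19 had every VDRgem library above every control and 2 had every one below, against 9.01% and 10.3% of all genes. By class, the higher members were 3 of 11 fibrillar collagens, 1 of 8 of the basement membrane zone, 3 of 9 FACITs, 1 of 4 transmembrane collagens and 3 of 12 others. The log2 fold change was above 0 in 11 of the 11 fibrillar genes and in 31 of the 44 members, against 50.1% of all genes. In bulk RNA, more cells of a type and more RNA per cell cannot be told apart.

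Between VDR-null and control, no member was higher and 1 was lower, where 0.678% of all genes were higher and 0.656% lower, 1.33% in all. At an unadjusted p under 0.05 there were 8 members, against 22.8% of all genes, and DESeq2 called 3 members lower and none higher. Of all 17837 genes, DESeq2 called 862 lower and 785 higher. The log2 fold change was above 0 in 15 of the 44 members and 51.5% of all genes. The median log2 fold change was -0.15 over the members and 0.01 over all genes. Every VDR-null library lay above every control for 1 member and below for 3, against 3.91% and 3.18% of all genes. The 17 other members called in a comparison with VDRgem had log2 fold changes in VDR-null against control that lay between -1.41 for Col2a1 and 0.44 for Col14a1, with the smallest adjusted p, 0.0782, for Col16a1.

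Between the mutants, 15 members were higher in VDRgem than in VDR-null and none was lower, where 10.6% of all genes were higher and 8.18% lower, 18.8% in all. At an unadjusted p under 0.05 there were 21 members, against 34.8% of all genes, and DESeq2 called none lower. Of all 17837 genes, DESeq2 called 1913 lower. The log2 fold change was above 0 in 34 of the 44 members and 47.1% of all genes. The median log2 fold change was 0.34 over the members and -0.02 over all genes, and 14 members had every VDRgem library above every VDR-null library and none had every one below, against 9.17% and 8.84% of all genes. By class these higher members were 5 fibrillar collagens, 4 of the basement membrane zone, 1 FACIT, 1 transmembrane collagen and 4 others. The comparisons of VDRgem with control and with VDR-null share the VDRgem libraries, so their calls are not independent of each other.

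Under the looser cut-off named in the study's description (unadjusted p under 0.05 and a log2 fold change beyond 0.3 in size), 19 members were higher and 2 lower in VDRgem than in control, against 10.1% and 8.84% of all genes. In VDR-null against control none was higher and 7 were lower, against 5.38% and 7.79%. In VDRgem against VDR-null 21 were higher and none was lower, against 15.5% and 12% of all genes. At an unadjusted p under 0.05 alone, 21 members stood out between VDRgem and control, against 23.9% of all genes.

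**Figure D2:**
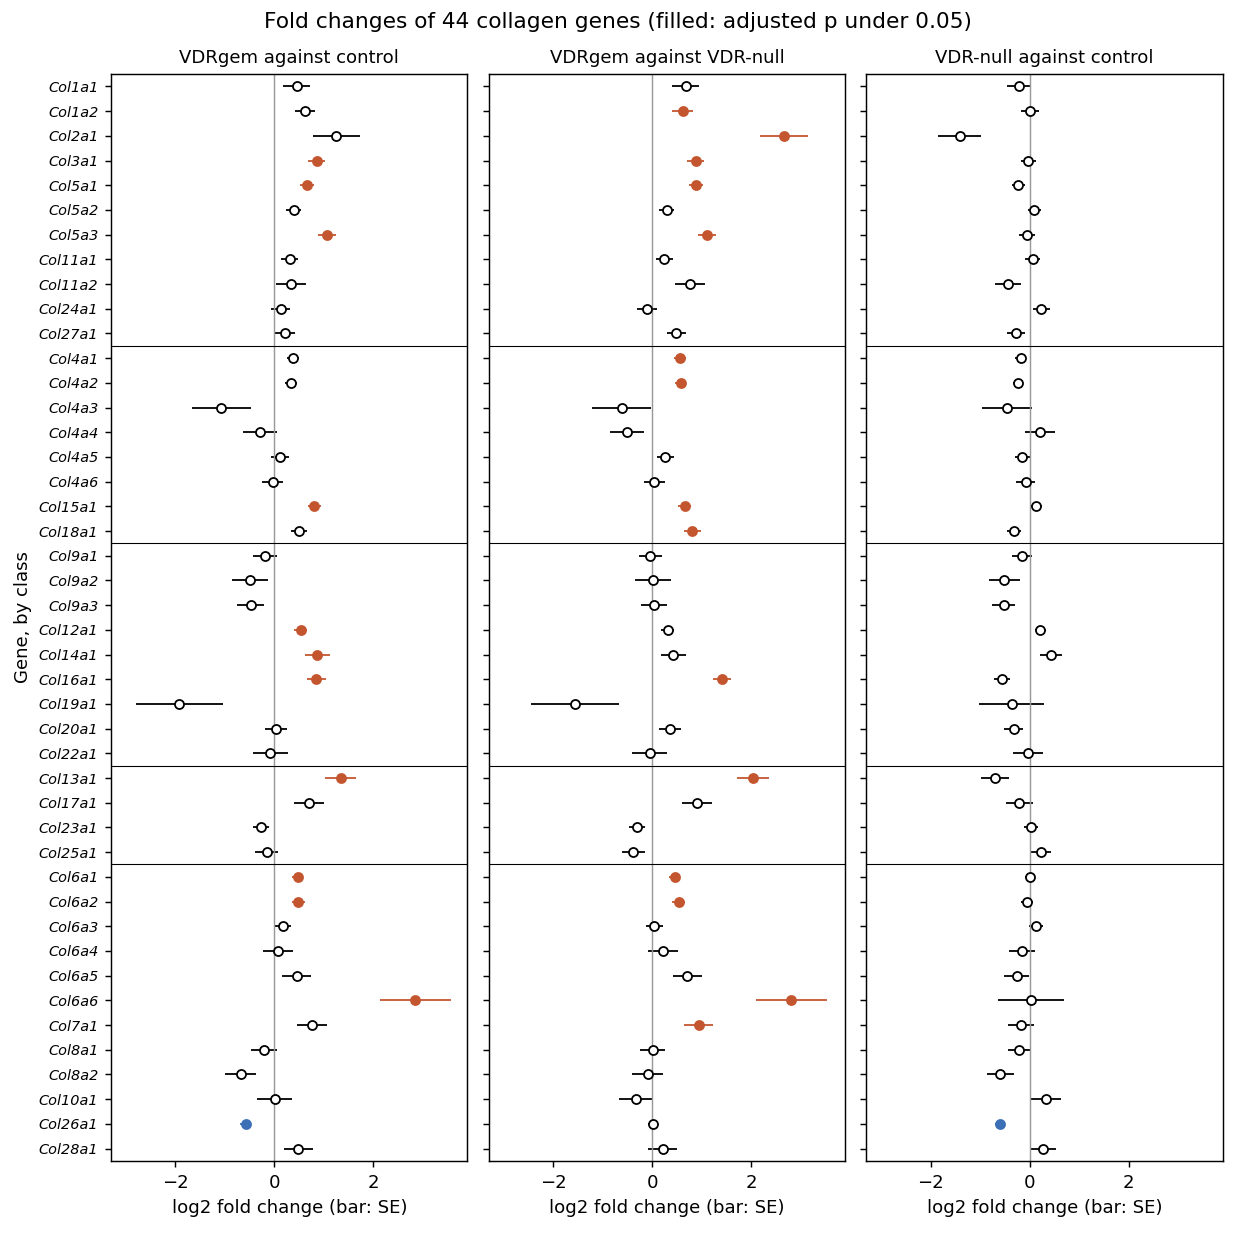
Fitted log2 fold change with its SE for each collagen gene in VDRgem over control, VDRgem over VDR-null and VDR-null over control. Filled points passed an adjusted p under 0.05 (red higher, blue lower) and open points did not. The filled points are 12, 15 and 1 of the 44 genes in the 3 panels.

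The libraries themselves stood apart in ways that touch these counts. Keratinocyte transcripts, summed over 14 markers, reached 17206 CPM in VDRgem 1, 3997 CPM in VDRgem 2 and 322 CPM in VDRgem 3, against 27.9 to 138 CPM in VDR-null and 32.6 to 552 CPM in control, and 12 of the 13 markers tested were higher in VDRgem than in control. Transcripts of ligament and dental follicle cells, summed over 8 markers, ran from 4905 to 5818 CPM in VDRgem, from 3405 to 5786 CPM in VDR-null and from 3034 to 3768 CPM in control, with 5 of 8 markers higher than in control. Cell cycle transcripts were lower in VDRgem for 8 of 8 markers, at 248 to 295 CPM summed, against 278 to 677 CPM in VDR-null and 464 to 636 CPM in control. Odontoblast markers, genes known from the dentin-forming cells of the tooth, were abundant as a sum in every library. They summed to 20063 to 29723 CPM in VDRgem, 16571 to 35855.5 CPM in VDR-null and 17916 to 23850 CPM in control. None of 6 passed between VDRgem and control, and 1 was lower in VDRgem than in VDR-null, against 8.18% of all genes. Smooth muscle transcripts, summed over 5 markers, were at 342 to 403 CPM in VDRgem, above all other libraries, against 206 to 304 CPM in VDR-null and 256 to 282 CPM in control, and Myh11 and Notch3 were higher in both VDRgem comparisons. Dental papilla markers had 2 of 6 lower in VDRgem than in control, Lhx6 and Fgf3, with summed levels of 132 to 154 CPM in VDRgem, 125 to 161 CPM in VDR-null and 148 to 174 CPM in control. Ameloblast markers, with 1 of 6 higher in VDRgem than in control, summed to 24999 to 52539 CPM in VDRgem, 15324 to 74296 CPM in VDR-null and 13713 to 71064 CPM in control. None of 6 osteoblast markers passed, at 3789 to 4555 CPM in VDRgem, 2744 to 4857 CPM in VDR-null and 2856 to 4131 CPM in control. No marker of these lists was at 0 in every library.

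The collagen calls depended on the VDRgem libraries. With the keratinocyte score as a covariate no member and no other gene was called between VDRgem and control. The mean log2 CPM of those markers was 7.723, 6.124 and 2.475 in VDRgem, and ran from -0.167 to 2.705 in control. In VDR-null it ran from -0.494 to 1.324. The score thus set VDRgem 1 and VDRgem 2 apart from all other libraries, while VDRgem 3 lay within the control range. Score and genotype overlap in part, and that fit cannot fully separate them. With 1 surrogate variable, or without VDRgem 1, no member was called between VDRgem and control either. In those 2 fits 1 and 39 of all genes were still called higher. The median log2 fold change of the members against control was 0.061 with the keratinocyte covariate, 0.18 with the surrogate variable and 0.31 without VDRgem 1, against 0.33 as fitted. Of the 15 members called between the mutants, 0 passed with the keratinocyte covariate, 9 with the surrogate variable and 8 without VDRgem 1, and the medians there were 0.26, 0.36 and 0.35. Of all genes, 0, 393 and 321 were higher between the mutants in those fits, against 1887 as fitted. The part of ligament, follicle, smooth muscle, dental papilla and cell cycle transcripts in these results was not tested. VDR-null 1 was the lowest library of its group for 24 of the 44 members (54.5%), against 23.4% of all genes, and VDRgem 1 the highest of its group for 24 members (54.5%), against 40% of all genes.

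Vdr, the mutated gene, was measured at 107, 205 and 179 CPM in VDRgem, against 213, 253, 259.9, 204 and 281 CPM in VDR-null and 176, 166, 154, 180.3 and 142 CPM in control. Every VDR-null library lay above every control, and VDRgem and control overlapped. Its log2 fold change was -0.0014 (SE 0.17, adjusted p = 0.997) in VDRgem and 0.56 (SE 0.15, adjusted p = 0.0618) in VDR-null against control, neither of which passed, and -0.56 (SE 0.18, adjusted p = 0.0397) between the mutants, which did. A count over the whole gene does not show whether a transcript encodes a working receptor, so it does not check the labels. Col2a1 lies 65.0 kb from Vdr on chromosome 15.

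Type I collagen, the bulk of the dentin matrix, made up the highest counts of the family. Col1a1 (ENSMUSG00000001506, chromosome 11 from 94936224 to 94953042, plus strand) stood at 120670, 112290 and 115510 CPM in VDRgem, against 39255, 77884, 116250, 60233 and 69907 CPM in VDR-null and 103280, 85079, 76692, 98731 and 60981 CPM in control. The VDRgem libraries lay above every control, and the VDR-null libraries ran from the lowest value of all, in VDR-null 1, to one within the VDRgem range, in VDR-null 3. The log2 fold changes of 0.45 (SE 0.27, adjusted p = 0.341) for VDRgem against control and 0.68 (SE 0.27, adjusted p = 0.093) for VDRgem against VDR-null did not pass. Col1a2, the second chain of the type I trimer, stood at 47420, 41131 and 43329 CPM in VDRgem, against 17933, 33177, 39087, 25691 and 27312 CPM in VDR-null and 30522, 27995, 28822, 32873 and 22745 CPM in control. Its 3 VDRgem libraries lay above all others. It passed between the mutants at 0.62 (SE 0.21, adjusted p = 0.0499), and missed against control at 0.62 (SE 0.21, adjusted p = 0.078). The call between the mutants was lost on leaving out any 1 of 11 of the 13 libraries, all but VDR-null 2 and VDR-null 3.

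Col3a1 (ENSMUSG00000026043, chromosome 1 from 45311538 to 45349706, plus strand), the single chain of type III collagen, stood at 22444, 17143 and 20167 CPM in VDRgem, against 9172, 15432, 9379, 10623 and 9523 CPM in VDR-null and 10183, 10714, 13180, 10382 and 10619 CPM in control. The lowest VDRgem library was above the highest of the others, VDR-null 2, and VDR-null and control overlapped. The log2 fold change was 0.85 (SE 0.17, adjusted p = 0.0138) against control and 0.88 (SE 0.17, adjusted p = 0.00643) against VDR-null. Without VDRgem 1 it was 0.75 (adjusted p = 0.086) and 0.78 (adjusted p = 0.0485). The ratio of Col3a1 to Col1a1 per kilobase was 0.182 in VDRgem, 0.165 in VDR-null and 0.140 in control (geometric means), and it ran from 0.163 to 0.198 in VDRgem, from 0.0860 to 0.249 in VDR-null and from 0.105 to 0.186 in control, which overlap.

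Type V chains enter type I fibrils and are known to limit their width, and 2 of the 3 were higher in VDRgem. Col5a1 stood at 2846, 2416 and 2477 CPM in VDRgem, against 938, 1574, 1520.1, 1528 and 1414 CPM in VDR-null and 1797, 1658, 1642, 1695 and 1399 CPM in control. Each VDRgem library was above every other library, at 0.66 (SE 0.15, adjusted p = 0.0198) against control and 0.89 (SE 0.15, adjusted p = 0.00338) against VDR-null on the log2 scale. Col5a3, a less common chain, stood at 182, 119 and 114 CPM in VDRgem, against 43.2, 76.2, 73.2, 57.4 and 68.5 CPM in VDR-null and 73.3, 69.9, 66.5, 68.1 and 53.6 CPM in control. It too was higher in VDRgem, with a log2 value of 1.06 (SE 0.18, adjusted p = 0.00982) against control and 1.12 (SE 0.18, adjusted p = 0.00313) against VDR-null. Col5a2, the partner of Col5a1, stood at 4404, 4500.3 and 5056 CPM in VDRgem, against 2758, 4622, 4296, 3407 and 3894 CPM in VDR-null and 3649.9, 3476, 3399.5, 4058 and 3202 CPM in control, and its values of 0.39 (SE 0.15, adjusted p = 0.125) against control and 0.29 (SE 0.15, adjusted p = 0.176) against VDR-null did not pass. Without VDRgem 1 the log2 fold change against control was 0.57 (adjusted p = 0.117) for Col5a1 and 0.80 (adjusted p = 0.0645) for Col5a3, and both still passed against VDR-null. Col5a1 also lost its call against control without control 5.

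Col2a1, the main collagen of cartilage, showed the widest spread of the fibrillar genes. It stood at 218, 65.5 and 66.9 CPM in VDRgem, against 5.76, 25.999, 23.6, 19.9 and 17.6 CPM in VDR-null and 35.1, 26.4, 86.3, 49.989 and 46.6 CPM in control. VDRgem 1 was the highest, every VDR-null library was below every control, and VDRgem and control overlapped. The log2 fold change was 2.66 (SE 0.48, adjusted p = 0.00511) between VDRgem and VDR-null, and -1.41 (SE 0.43, adjusted p = 0.0861) for VDR-null and 1.25 (SE 0.48, adjusted p = 0.124) for VDRgem against control, which did not pass. Without VDRgem 1 the first was 1.83 (adjusted p = 0.0429). The cartilage markers, 8 in all, summed to 52.0 to 94.2 CPM in VDRgem, 47.5 to 91.3 CPM in VDR-null and 62.4 to 87.4 CPM in control. Of the 5 tested, Acan (cartilage aggrecan) and Comp (a matrix protein of cartilage and tendon) were higher in VDRgem than in VDR-null, at 1.44 (SE 0.24, adjusted p = 0.00335) and 1.57 (SE 0.37, adjusted p = 0.0142). Of all genes, 10.6% were higher in that comparison. The median log2 fold change of the 5 markers was 0.28 between the mutants and -0.031 in VDRgem against control, where 1 was higher. Neither the part of cartilage markers in the Col2a1 result nor that of its place 65.0 kb from Vdr was tested.

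The other fibrillar genes did not pass in any comparison. Col11a1 and Col11a2, chains of a minor fibrillar collagen shared by cartilage and other tissues, differed in how far their libraries spread. Col11a2 stood at 4405, 4438 and 4056 CPM in VDRgem, against 1145, 2451, 4116, 2249 and 2669 CPM in VDR-null and 4317, 3718, 2761, 4135 and 2220.5 CPM in control, so that the range within VDR-null covered most of the range of the other groups. Its log2 fold change was 0.33 (SE 0.30, adjusted p = 0.561) in VDRgem and -0.44 (SE 0.27, adjusted p = 0.34) in VDR-null against control, and 0.77 (SE 0.30, adjusted p = 0.0877) between the mutants. Col11a1 stood at 2122, 2309.7 and 2741 CPM in VDRgem, against 1378, 2329.5, 2447, 1769 and 2119.5 CPM in VDR-null and 2112, 1955, 1649.7, 2298 and 1640 CPM in control, with the highest library in VDRgem and the lowest in VDR-null. It was at 0.31 (SE 0.18, adjusted p = 0.317) in VDRgem and 0.06 (SE 0.15, adjusted p = 0.862) in VDR-null against control. Col24a1 and Col27a1 had log2 fold changes of 0.13 and 0.21 in VDRgem and 0.23 and -0.28 in VDR-null against control.

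**Figure D3:**
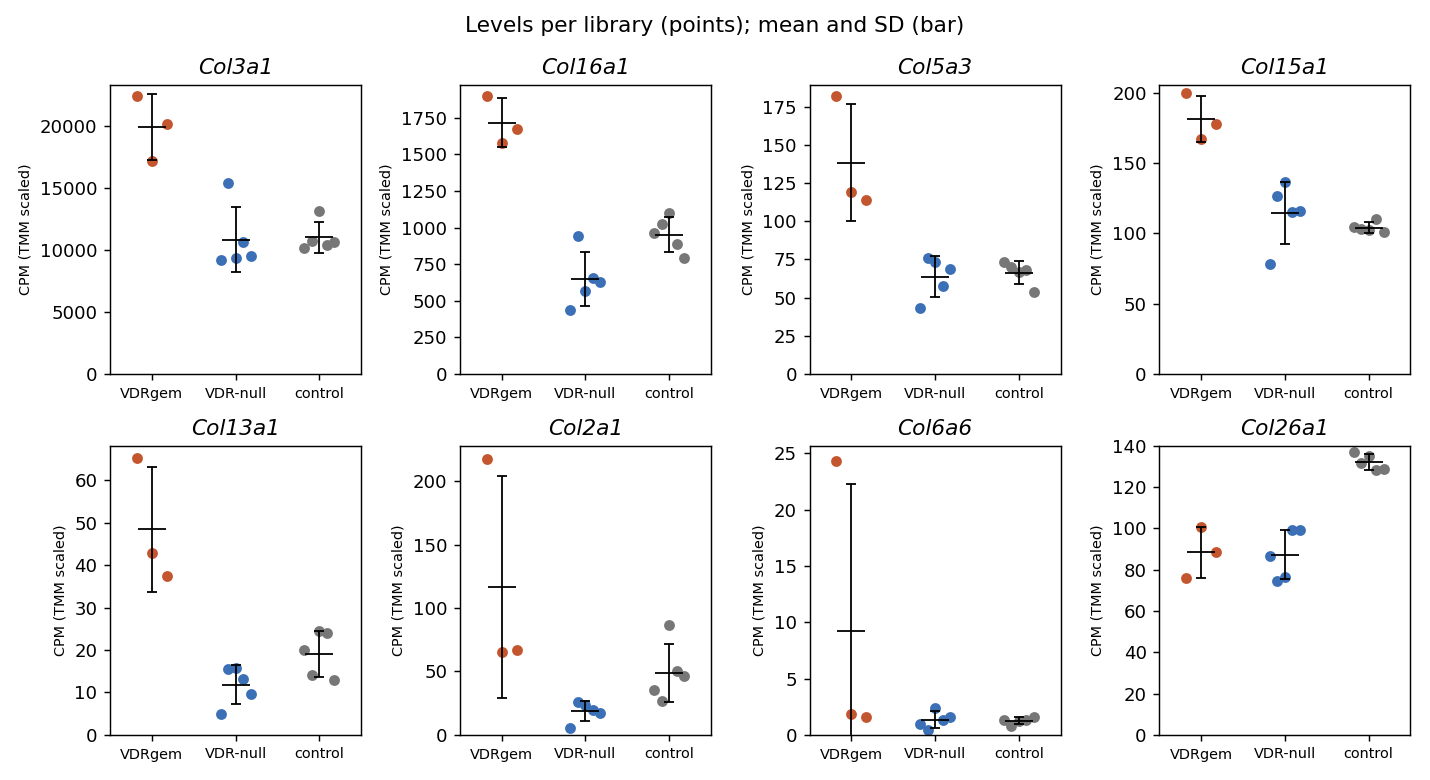
CPM per library for 8 collagen genes in VDRgem (3 libraries), VDR-null (5) and control (5), with the mean and SD of each group in black. Col3a1, Col16a1, Col5a3, Col15a1 and Col13a1 lie highest in all 3 VDRgem libraries, Col6a6 is high in 1 VDRgem library, and Col26a1 lies below control in both mutants. Where an SD reaches below 0 its lower end is not drawn.

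In the basement membrane zone, Col4a1 and Col4a2, the chains of the common type IV trimer, followed each other closely. Col4a1 stood at 1485, 1413 and 1644 CPM in VDRgem, against 742, 1083, 1133, 1153 and 1021 CPM in VDR-null and 1189, 1161, 1126, 1162 and 1176 CPM in control. Col4a2 stood at 935, 872 and 999.9 CPM in VDRgem, against 464, 666, 675, 704 and 625.1 CPM in VDR-null and 767, 738, 730.2, 751 and 718 CPM in control. For both genes the VDRgem libraries lay above all others and VDR-null 1 lay lowest. Between the mutants the log2 fold change was 0.56 (SE 0.12, adjusted p = 0.0103) for Col4a1 and 0.58 (SE 0.11, adjusted p = 0.00673) for Col4a2, and both still passed without VDRgem 1. Against control VDRgem was at 0.38 (SE 0.12, adjusted p = 0.0722) and 0.34 (SE 0.12, adjusted p = 0.0884), which did not pass. All VDR-null libraries lay below all controls for Col4a2, at -0.24 (SE 0.10, adjusted p = 0.177), a difference that did not pass.

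Col15a1 and Col18a1 are the related collagens of types XV and XVIII, which carry heparan or chondroitin sulfate chains at basement membranes. Col15a1 stood at 199, 167 and 177 CPM in VDRgem, against 78.5, 127, 136, 115 and 116 CPM in VDR-null and 104, 103, 102, 110.2 and 101 CPM in control. Every VDRgem library was above every other, at 0.80 (SE 0.13, adjusted p = 0.00866) against control and 0.67 (SE 0.13, adjusted p = 0.00653) against VDR-null. Col18a1, the source of the fragment endostatin, stood at 380.1, 275 and 249 CPM in VDRgem, against 124, 158, 198, 221 and 156 CPM in VDR-null and 219.6, 213, 198, 238 and 200.3 CPM in control. It passed between the mutants at 0.81 (SE 0.17, adjusted p = 0.00778) and not against control at 0.49 (SE 0.17, adjusted p = 0.0873). VDRgem 1 was the highest library for both. Without it Col15a1 was at 0.72 (adjusted p = 0.0561) against control, and Col18a1 at 0.60 (adjusted p = 0.0656) and Col15a1 at 0.58 (adjusted p = 0.052) against VDR-null. Endothelium, which also makes basement membrane, had 1 of 6 markers higher in VDRgem than in control, with summed levels of 533 to 639 CPM in VDRgem, 443 to 570 CPM in VDR-null and 454 to 538 CPM in control. Its part was not tested.

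The remaining type IV chains did not pass. Col4a5 and Col4a6, which form a trimer in epithelial basement membranes, did not separate the groups. Col4a5 stood at 74.3, 71.1 and 48.1 CPM in VDRgem, against 47.2, 44.9, 47.7, 56.8 and 71.4 CPM in VDR-null and 69.2, 51.6, 48.1, 65.9 and 62.9 CPM in control, at 0.11 (SE 0.18, adjusted p = 0.745) in VDRgem and -0.15 (SE 0.15, adjusted p = 0.59) in VDR-null against control. Col4a6 stood at 28.5, 30.9 and 17.04 CPM in VDRgem, against 25.1, 19.4, 19.7, 23.8 and 35.4 CPM in VDR-null and 32.1, 25.2, 20.5, 27.8 and 25.1 CPM in control, at -0.04 (SE 0.22, adjusted p = 0.943) in VDRgem and -0.08 (SE 0.19, adjusted p = 0.833) in VDR-null against control. Within VDRgem both chains were lowest in VDRgem 3. Col4a3 and Col4a4, chains known from the glomerular basement membrane of the kidney, were near the floor of detection, with at most 0.418 CPM of Col4a3 and 1.46 CPM of Col4a4 in any library. Col4a3 stood at 0.0575, 0.0880 and 0.220 CPM in VDRgem, against 0.329, 0.197, 0.0404, 0.233 and 0.127 CPM in VDR-null and 0.194, 0.237, 0.393, 0.0843 and 0.418 CPM in control, and at -1.07 (SE 0.60, adjusted p = 0.299) in VDRgem and -0.46 (SE 0.50, adjusted p = 0.621) in VDR-null against control. Col4a4 stood at 0.633, 0.682 and 0.806 CPM in VDRgem, against 0.988, 0.753, 1.01, 1.38 and 0.916 CPM in VDR-null and 0.484, 0.663, 1.10, 0.548 and 1.46 CPM in control, and at -0.30 (SE 0.34, adjusted p = 0.65) in VDRgem and 0.21 (SE 0.29, adjusted p = 0.716) in VDR-null against control. The libraries of all groups overlapped for both.

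Among the FACITs, Col16a1 showed the smallest adjusted p of any member between the mutants. Col16a1 (ENSMUSG00000040690, chromosome 4 from 130047840 to 130099283, plus strand) encodes a collagen found on fibrils and near basement membranes. It stood at 1900.4, 1574 and 1669.7 CPM in VDRgem, against 439, 940.5, 565, 654 and 632 CPM in VDR-null and 960.3, 1027, 1099.8, 885 and 789.5 CPM in control. The lowest VDRgem library was above the highest control, and the VDR-null libraries other than VDR-null 2 were all below the lowest control. Its log2 fold change was 0.85 (SE 0.19, adjusted p = 0.0181) in VDRgem and -0.56 (SE 0.16, adjusted p = 0.0782) in VDR-null against control, the second of which did not pass, and 1.41 (SE 0.19, adjusted p = 0.00139) between the mutants. Without VDRgem 1 the value against control was 0.76 (adjusted p = 0.105) and that between the mutants 1.32 (adjusted p = 0.00582).

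Col12a1 and Col14a1 are FACITs of dense connective tissue such as ligament and tendon. Col12a1 stood at 3089, 3275 and 3939 CPM in VDRgem, against 2393, 3399.8, 2268, 2825 and 2916 CPM in VDR-null and 2592, 2222, 2300, 2291 and 2492 CPM in control. The VDRgem libraries lay above every control and overlapped VDR-null, at 0.53 (SE 0.13, adjusted p = 0.0278) against control and 0.32 (SE 0.13, adjusted p = 0.11) against VDR-null. Its call was lost without any 1 of VDRgem 1, 2 or 3 or control 2, 3, 4 or 5. Col14a1 stood at 327, 173 and 147 CPM in VDRgem, against 127, 131, 259, 132 and 155 CPM in VDR-null and 119, 121, 125, 122 and 105 CPM in control. VDRgem 1 and VDR-null 3 were the highest, and both mutants lay above every control. In VDRgem against control its log2 fold change was 0.87 (SE 0.25, adjusted p = 0.0478), which became 0.43 (adjusted p = 0.367) without VDRgem 1, and the call was also lost without VDRgem 2, any 1 control, VDR-null 4 or VDR-null 5. In VDR-null it was 0.44 (SE 0.22, adjusted p = 0.254).

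Skeletal muscle transcripts, summed over 8 markers, were highest in the same 2 libraries, at 223 CPM in VDRgem 1 and 554 CPM in VDR-null 3, and at 5.29 to 24.2 CPM in control. Col22a1, a FACIT of the junction of muscle and tendon, was also highest there. It stood at 143, 81.3 and 53.8 CPM in VDRgem, against 74.9, 48.0, 173, 109 and 74.7 CPM in VDR-null and 91.4, 76.7, 106, 113 and 104 CPM in control, and was at -0.08 (SE 0.35, adjusted p = 0.922) in VDRgem against control on the log2 scale. The part of muscle in the levels of Col14a1 and Col22a1 was not tested.

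The type IX chains, FACITs that accompany type II fibrils in cartilage, did not pass. Col9a2 stood at 71.1, 331 and 164 CPM in VDRgem, against 135, 142, 222, 183 and 246 CPM in VDR-null and 350.3, 269.8, 248, 273 and 183 CPM in control, with VDRgem 1 the lowest library of all and VDRgem 2 second only to control 1. Its log2 fold change was -0.49 (SE 0.37, adjusted p = 0.457) in VDRgem and -0.51 (SE 0.31, adjusted p = 0.347) in VDR-null against control. Col9a3 stood at 112, 116 and 68.4 CPM in VDRgem, against 72.3, 51.6, 134, 127 and 94.2 CPM in VDR-null and 143, 146, 154, 133 and 114 CPM in control, and the groups overlapped. It was at -0.48 (SE 0.26, adjusted p = 0.29) in VDRgem and -0.53 (SE 0.23, adjusted p = 0.187) in VDR-null against control. Col9a1 stood at 8.32, 13.9 and 8.86 CPM in VDRgem, against 11.6, 8.71, 8.20, 8.19 and 16.4 CPM in VDR-null and 13.7, 9.61, 12.8, 11.2 and 11.7 CPM in control, again with overlap, and at -0.19 (SE 0.24, adjusted p = 0.675) in VDRgem and -0.15 (SE 0.20, adjusted p = 0.704) in VDR-null against control. Col20a1 reached at most 3.74 CPM and Col19a1 at most 0.272 CPM in any library.

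The transmembrane collagens are shed from the cell surface and bind the matrix around it. Col13a1, known from cell adhesions and the nerve-muscle junction, stood at 65.1, 42.9 and 37.3 CPM in VDRgem, against 4.98, 15.6, 15.7, 13.2 and 9.64 CPM in VDR-null and 20.007, 14.014, 24.5, 24.1 and 13.019 CPM in control. Each VDRgem library exceeded all others, at 1.34 (SE 0.32, adjusted p = 0.0231) against control and 2.04 (SE 0.32, adjusted p = 0.00271) against VDR-null. Without VDRgem 1 the values were 1.05 (adjusted p = 0.149) and 1.76 (adjusted p = 0.0177), and the call against control was also lost without control 2 or control 5.

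Col17a1, a component of the hemidesmosomes that anchor epithelium, stood at 966, 508 and 248 CPM in VDRgem, against 284, 261, 353, 413 and 221 CPM in VDR-null and 318, 330.1, 419, 324 and 377 CPM in control. It was highest in VDRgem 1 and VDRgem 2, the libraries with the most keratinocyte transcripts, while VDRgem 3 lay below every control. The log2 fold changes of 0.70 (SE 0.31, adjusted p = 0.185) against control and 0.90 (SE 0.31, adjusted p = 0.0548) against VDR-null did not pass. Col7a1, the collagen of the anchoring fibrils under epithelium, had the same order of libraries within VDRgem. It stood at 419, 275 and 217 CPM in VDRgem, against 81.2, 103, 254, 205 and 149 CPM in VDR-null and 184, 203, 173, 179.8 and 158 CPM in control, and passed between the mutants at 0.94 (SE 0.30, adjusted p = 0.0427) but not against control at 0.76 (SE 0.30, adjusted p = 0.135). Without VDRgem 1 Col7a1 was at 0.63 (adjusted p = 0.253) between the mutants, and its call held on leaving out only 3 of the 13 libraries in turn (VDRgem 3, VDR-null 3 and VDR-null 4).

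Col23a1 and Col25a1 did not pass. Col23a1 stood at 106, 191 and 187 CPM in VDRgem, against 186, 183, 217, 176 and 229 CPM in VDR-null and 214, 185, 182, 214 and 178 CPM in control, with VDRgem 1 the lowest library, and was at -0.27 (SE 0.16, adjusted p = 0.339) in VDRgem and 0.02 (SE 0.14, adjusted p = 0.941) in VDR-null against control. Col25a1, known from motor innervation, had a log2 fold change of -0.16 in VDRgem and 0.22 in VDR-null against control.

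Type VI collagen forms beaded filaments around cells from Col6a1, Col6a2 and another chain, most often Col6a3. Col6a1 stood at 1407, 1288 and 1235 CPM in VDRgem, against 734, 1038, 1072, 974 and 942 CPM in VDR-null and 935, 898, 999, 973 and 929.6 CPM in control. Col6a2 stood at 1354, 1249.7 and 1108 CPM in VDRgem, against 618, 885, 1022, 911 and 825 CPM in VDR-null and 919, 873, 921, 915 and 804 CPM in control. For both chains all VDRgem libraries lay above all others. The log2 fold change against control was 0.47 (SE 0.11, adjusted p = 0.0228) for Col6a1 and 0.48 (SE 0.13, adjusted p = 0.0378) for Col6a2, and against VDR-null 0.46 (SE 0.11, adjusted p = 0.0148) and 0.54 (SE 0.13, adjusted p = 0.016). Col6a3 stood at 732, 857 and 729 CPM in VDRgem, against 584, 579, 689.6, 936 and 956 CPM in VDR-null and 743, 628, 604, 738 and 713 CPM in control, and its log2 value was 0.17 (SE 0.17, adjusted p = 0.574) against control, which did not pass.

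Without VDRgem 1 the values against control were 0.40 (adjusted p = 0.131) for Col6a1 and 0.40 (adjusted p = 0.198) for Col6a2. Col6a1 also lost its call without VDRgem 2 or control 1, 2 or 5, and Col6a2 without VDRgem 2 or any 1 control. Against VDR-null neither passed without VDRgem 1.

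The minor chain Col6a6 rested on 1 library. It stood at 24.3, 1.89 and 1.60 CPM in VDRgem, against 0.960, 0.466, 2.42, 1.28 and 1.63 CPM in VDR-null and 1.36, 0.805, 1.27, 1.33 and 1.58 CPM in control. VDRgem 1 exceeded every other library, and the other VDRgem libraries lay within the range of VDR-null. The fitted log2 fold change of 2.85 (SE 0.72, adjusted p = 0.0285) against control became 0.43 (adjusted p = 0.69) without VDRgem 1, and it was -0.48 with the keratinocyte covariate. Neither DESeq2 nor limma-voom called it. Col6a4 and Col6a5, the other minor chains, did not pass, at 0.07 and 0.45.

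Col26a1 was the only member that fell in either mutant at an adjusted p under 0.05, and it did so in both. Col26a1 (ENSMUSG00000004415, chromosome 5 from 136741759 to 136883209, minus strand) encodes a short collagen with an EMI domain. It stood at 76.0, 101 and 88.8 CPM in VDRgem, against 86.6, 74.3, 76.5, 99.1 and 99.1 CPM in VDR-null and 137, 131, 135, 128 and 129 CPM in control. The 5 controls kept within a narrow band, and all 8 mutant libraries lay below it. Against the shared controls its log2 fold change was -0.58 (SE 0.11, adjusted p = 0.0118) in VDRgem and -0.60 (SE 0.09, adjusted p = 0.018) in VDR-null, and 0.02 (SE 0.11, adjusted p = 0.913) between the mutants. In VDRgem the call was lost without VDRgem 1, at -0.49 (adjusted p = 0.0841). In VDR-null it was lost without control 1, 2, 3 or 4 or VDR-null 2. Over all 13 single libraries left out in turn, its log2 fold change in VDR-null stayed between -0.65 and -0.56. In VDR-null the call also held with the keratinocyte covariate. In VDRgem the call was lost with that covariate and with 1 surrogate variable.

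Of the last members, Col8a1 and Col8a2, the chains of a short collagen known from the cornea and blood vessels, did not pass. Col8a2 stood at 74.5, 63.4 and 56.7 CPM in VDRgem, against 91.5, 45.2, 25.9, 88.1 and 93.8 CPM in VDR-null and 119, 89.7, 90.9, 117 and 105 CPM in control. Every VDRgem library was below every control, and VDR-null overlapped both, with VDR-null 3 the lowest library of all. Its log2 fold change was -0.69 (SE 0.32, adjusted p = 0.213) in VDRgem and -0.60 (SE 0.27, adjusted p = 0.213) in VDR-null against control. Col8a1 stood at 88.3, 65.2 and 77.3 CPM in VDRgem, against 95.9, 64.9, 33.6, 95.9 and 91.0 CPM in VDR-null and 88.9, 74.7, 81.7, 101 and 98.2 CPM in control, with VDR-null 3 again lowest, and was at -0.21 (SE 0.26, adjusted p = 0.675) in VDRgem and -0.22 (SE 0.22, adjusted p = 0.592) in VDR-null against control. Col10a1, the marker of hypertrophic cartilage, reached at most 1.88 CPM. Col28a1, known from peripheral nerve, had a log2 fold change of 0.48 in VDRgem and 0.27 in VDR-null, neither of which passed. Schwann cell transcripts, summed over 6 markers of which none passed, ran from 411 to 801 CPM in VDRgem, 86.0 to 2131 CPM in VDR-null and 267 to 444 CPM in control, and their part was not tested.

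**Figure D4:**
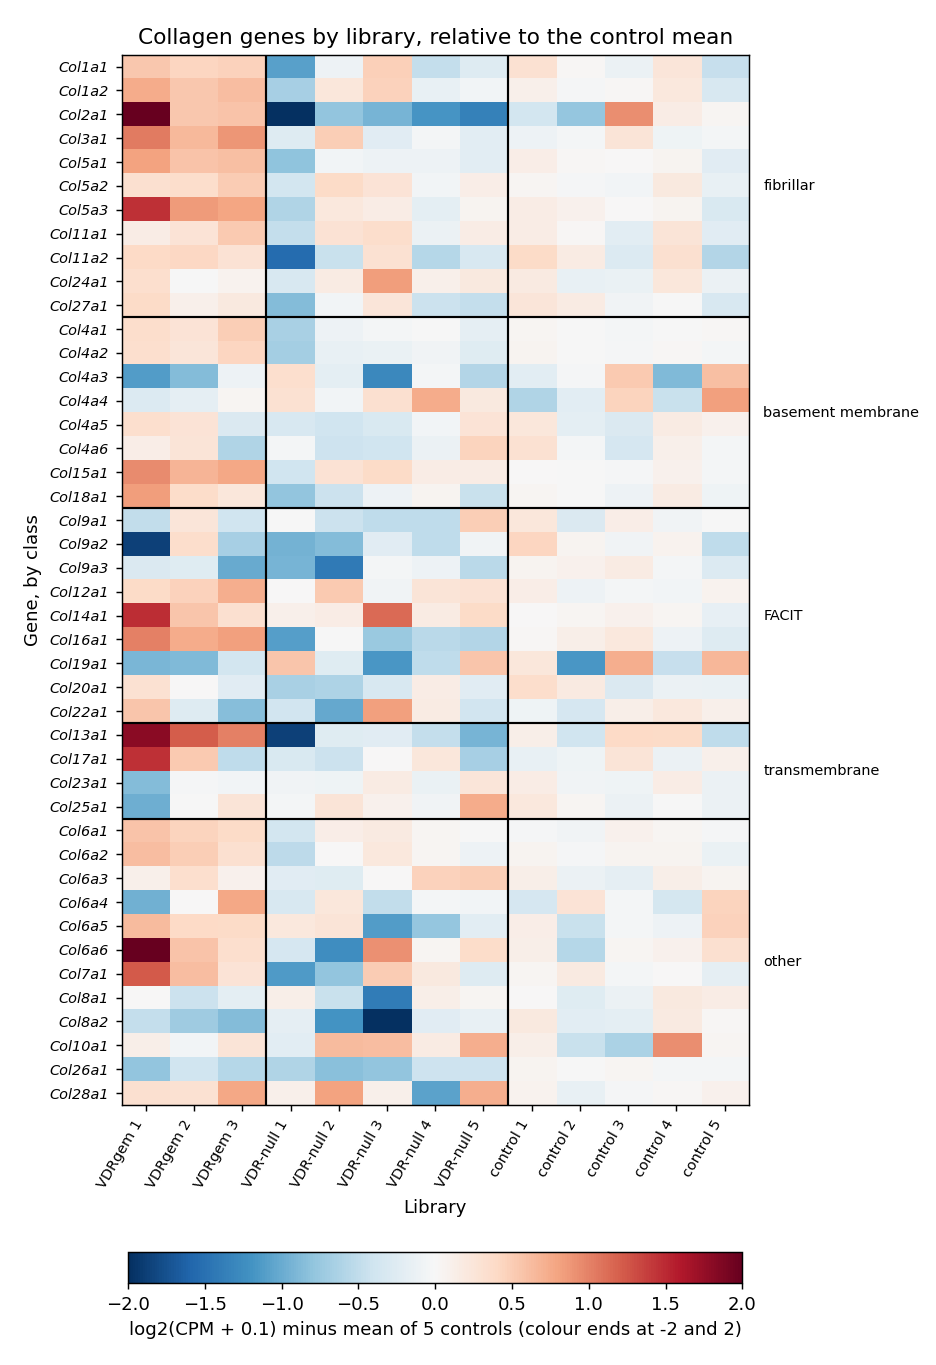
Heat map of log2(CPM + 0.1) minus the mean of the 5 controls for each collagen gene (rows, by class) in each library (columns: VDRgem, VDR-null, control). Colour ends at -2 and 2. VDRgem columns are mostly red in the fibrillar class, the first VDR-null column is mostly blue, and the Col26a1 row is blue in all 8 mutant libraries.

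Chains of 1 trimer were compared within each library, where scaling cancels. Over 11 pairs and 3 comparisons, no ratio passed an adjusted p under 0.05 in a two-sided exact permutation test, with 7 of 33 at an unadjusted p under 0.05. The smallest p was limited to 0.0357 for 3 against 5 libraries and 0.00794 for 5 against 5, and the smallest adjusted p was 0.187. The Col1a1 to Col1a2 ratio per kilobase had geometric means of 2.39 in VDRgem, 2.23 in VDR-null and 2.65 in control. The type I trimer is known to hold 2 chains of Col1a1 to 1 of Col1a2. Col4a1 to Col4a2 kept to 1.58 in VDRgem, 1.59 in VDR-null and 1.53 in control, with every library between 1.503 and 1.64. Col6a1 to Col6a2 was 1.02 in VDRgem, 1.08 in VDR-null and 1.03 in control.

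Col5a1 to Col5a2 was 0.437 in VDRgem, with 0.289 in VDR-null and 0.363 in control. The 3 VDRgem libraries, at 0.386 to 0.509, lay above the VDR-null libraries at 0.268 to 0.354, a difference of 0.59 on the log2 scale (exact permutation p = 0.0357, adjusted p = 0.187). Col8a1 to Col8a2 was 1.005 in VDRgem and 0.980 in VDR-null, against 0.723 in control, and all libraries of both mutants, from 0.823 upwards, lay above all controls, which reached 0.793. The log2 difference was 0.47 for VDRgem (exact permutation p = 0.0357) and 0.44 for VDR-null (exact permutation p = 0.00794), both with an adjusted p of 0.187. Col11a1 to Col11a2 was 0.389 in VDRgem, 0.593 in VDR-null and 0.405 in control, with overlapping libraries.

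**Figure D5:**
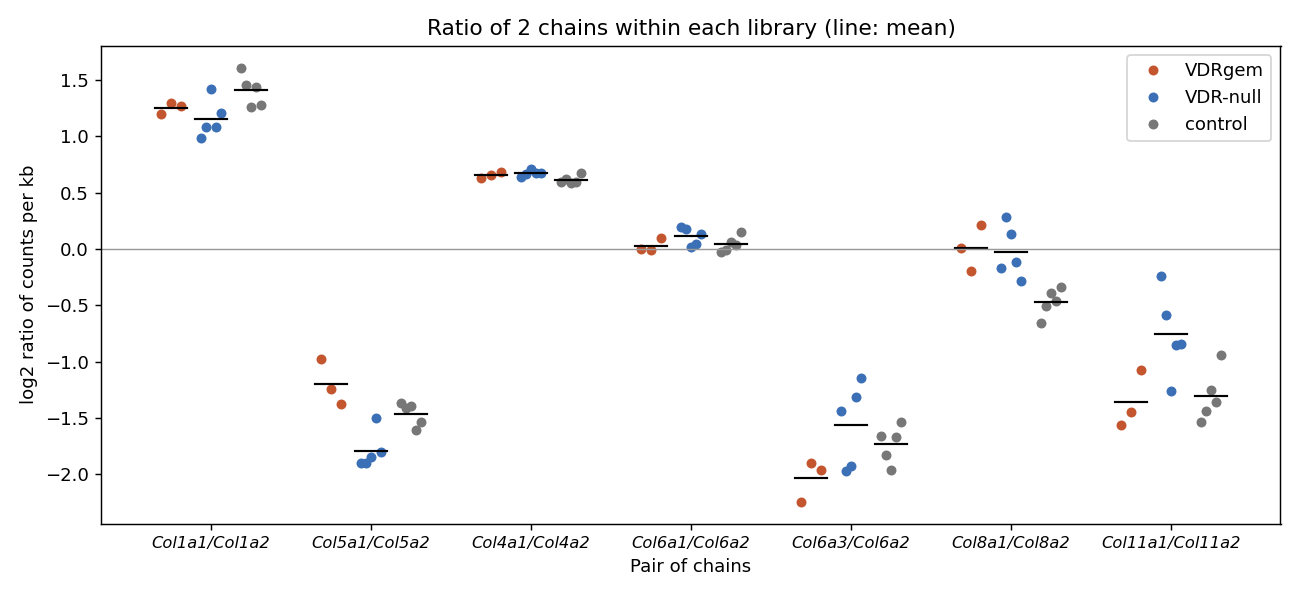
Ratio of the paired chains of collagen trimers per kilobase, 1 point per library, in VDRgem, VDR-null and control, on a log2 scale. Col4a1 to Col4a2 and Col6a1 to Col6a2 hardly vary, and Col8a1 to Col8a2 lies higher in both mutants than in control.

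Collagen also needs enzymes, chaperones, receptors and proteases. Of 59 such genes 55 were tested. In VDRgem against control 7 were higher and 1 was lower, which is 14.5% of the 55, against 8.62% of all genes. Their median log2 fold change was 0.22, against 0.00 over all genes. P4ha3, a prolyl 4-hydroxylase subunit, stood at 66.9, 54.7 and 65.5 CPM in VDRgem, against 39.3, 56.2, 38.7, 45.5 and 35.0 CPM in VDR-null and 38.1, 36.5, 44.9, 37.9 and 41.1 CPM in control, with every VDRgem library above every control but not above VDR-null 2, and P4ha3 had a log2 fold change against control of 0.65 (SE 0.13, adjusted p = 0.0139). P3h2, a prolyl 3-hydroxylase with a known preference for type IV collagen, was at 0.70 (SE 0.20, adjusted p = 0.0433). Adamts2, which removes the amino-terminal propeptide of procollagens I to III, was at 0.40 (SE 0.11, adjusted p = 0.0333).

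Loxl1, a crosslinking enzyme also needed for elastic fibres, stood at 124, 83.8 and 74.5 CPM in VDRgem, against 30.7, 48.7, 41.3, 43.9 and 39.1 CPM in VDR-null and 61.3, 53.0, 63.0, 53.7 and 48.7 CPM in control. The VDRgem libraries lay above all others, and 4 of the 5 VDR-null libraries below every control, with VDR-null 2 level with the lowest control, and the log2 fold change of Loxl1 was 0.75 (SE 0.16, adjusted p = 0.0175) against control and 1.21 (SE 0.16, adjusted p = 0.0014) against VDR-null. Among the receptors, Itga11, the collagen-binding integrin α11 of fibroblasts, was at 0.42 (SE 0.12, adjusted p = 0.0427) against control, and Adgrg1, an adhesion receptor that binds type III collagen, at 0.69 (SE 0.19, adjusted p = 0.0375). Mmp14, a membrane-bound collagenase, stood at 1636, 1506 and 1574 CPM in VDRgem, against 956, 1354, 1393, 1121 and 1084 CPM in VDR-null and 1175, 1138, 1203, 1245 and 1108 CPM in control, and was at 0.42 (SE 0.12, adjusted p = 0.0375) against control. Klhl12, an adaptor in the export of collagen in large vesicles, was the 1 lower gene, at -0.30 (SE 0.08, adjusted p = 0.0376). None of these 8 calls held without VDRgem 1, where 39 of all genes were higher and 27 lower.

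In VDR-null against control, Mia2, a partner in procollagen export from the endoplasmic reticulum, was the 1 gene of the 55 called (1.82%, against 1.33% of all genes), with all VDR-null libraries above all controls, at 0.37 (SE 0.07, adjusted p = 0.0298). The median log2 fold change of the 55 genes there was 0.12, against 0.01 over all genes. Between VDRgem and VDR-null, 8 genes were higher and 4 lower, 21.8% of the 55, a share near the 18.8% of all genes. The higher ones were P4ha3, Plod3, Adamts2, Loxl1, Itga11, Ddr1, Adgrg1 and Mmp14. Ddr1, a collagen receptor of epithelial cells, stood at 238, 139 and 116 CPM in VDRgem, against 64.6, 81.0, 119, 110.1 and 68.1 CPM in VDR-null and 97.6, 110.4, 110.2, 96.9 and 101 CPM in control, highest in VDRgem 1. The lower ones were Plod2, a lysyl hydroxylase of telopeptides, at -0.67 (SE 0.19, adjusted p = 0.0269), and 3 genes of export and its control: Sec23a at -0.33 (SE 0.08, adjusted p = 0.0123), Klhl12 at -0.35 (SE 0.08, adjusted p = 0.0138) and Creb3l2 at -0.29 (SE 0.09, adjusted p = 0.0477). Without VDRgem 1 only 1 gene of the list was called between the mutants, and without VDR-null 3 there were 19. Of all genes, 321 were higher and 113 lower without VDRgem 1. Without VDR-null 3, 2363 were higher and 1830 lower.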

How the data were processed

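RNA of lower incisors was turned into strand-marked mRNA libraries, per the labels' protocols. The authors deposited counts of reads per gene, whole numbers without scaling. The submitters' processing notes name HTSeq 0.6.1p1, bcl2fastq 2.20.0.422, the mm10 genome and STAR 2.5.3a. Which annotation and strand setting were used is not given in the sources used here. Poly-A selection with fragmentation gives longer transcripts more reads, so genes are compared only per kilobase.

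Symbols, positions and transcript lengths came from GENCODE M21 on GRCm38, called mm10, where 34618 of 34709 genes matched. Depth ran from 20405188 to 87783466 counts per library. Tests used edgeR 4.0.16 (R 4.3.3) on these counts (TMM, filterByExpr with a minimum count of 10, quasi-likelihood test), with all 13 libraries in 1 fit and no covariate. P-values were adjusted by Benjamini-Hochberg over 17837 genes and called at 0.05. SE is the size of the log2 fold change divided by the square root of F. Chain ratios added 0.5 to each count and used a two-sided exact permutation test over libraries (scipy 1.17.1). On simulated counts of VDRgem against control the fit recovered 36.4% of genes changed 1.5-fold, 57.8% changed 2-fold and 89.4% changed 4-fold. There were 6 unchanged genes called among 17607. The simulation changed a small set of genes alike in both mutants and set no library apart, unlike VDRgem 1 in the data. These rates may therefore not hold for the real libraries. Alternatives were DESeq2 1.42.0, limma-voom (limma 3.58.1), other size factors, filters and thresholds, 1 surrogate variable (sva 3.50.0), a keratinocyte score as covariate and leaving out libraries.

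Members, lists and tests were chosen with earlier results of these data known. By rule, values per library are given for members called in any comparison, the 2 highest members of each class and both chains of the trimer pairs tested, and the rest by level and fold. Promoter windows came from RefSeq on GRCm38.p6.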

Additional observations from a re-analysis of the deposited data

Results flagged for a closer look

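In groups of 5 libraries, a library was singled out for a collagen gene when its gap to the nearest library on the log2 scale was large against the whole range of the group (Dixon's test at the 95% level). This gave 7 such values in 88 groups of 5 over the 44 genes, in 4 different libraries, where chance gives about 1 in 20 groups. The collagen share of counts gave none in its 2 groups of 5. VDR-null 1 was singled out as low for 4 genes. It held 5.76 CPM of Col2a1, against 17.6 to 25.999 CPM in the other VDR-null libraries, and 938 CPM of Col5a1, against 1414 to 1574 CPM. It also held 742 CPM of Col4a1, against 1021 to 1153 CPM, and 464 CPM of Col4a2, against 625.1 to 704 CPM. VDR-null 2 was high for Col3a1, at 15432 CPM against 9172 to 10623 CPM in the rest of its group. Control 3 was high for the same gene, at 13180 CPM against 10183 to 10714 CPM. VDR-null 3 was high for Col14a1, at 259 CPM against 127 to 155 CPM. Without VDR-null 1, 13 members were higher in VDRgem than in VDR-null, against 15 with it. Over all genes these counts were 1288 and 1887.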

How the results depend on the processing

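No paired analysis was possible because the labels carry no replicate numbers shared between groups. Counts of members below are those higher in VDRgem against control (11 as reported), lower there (1), lower in VDR-null against control (1) and higher in VDRgem against VDR-null (15). Biosynthesis counts are for the same 3 comparisons (8, 1 and 12 as reported). The cause of a change was not tested, except that a stricter threshold by construction can only lower a count or leave it unchanged. Leaving out libraries lowered some counts and raised others.

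With DESeq2, 3 members were lower in VDR-null, and 13 biosynthesis genes were called in VDRgem and 8 in VDR-null against control. Of all 17837 genes, it called 1239 higher and 1081 lower in VDRgem against control. In VDR-null against control it called 785 higher and 862 lower. With library totals alone, which moved the median log2 fold change of all genes to -0.17 in VDRgem against control and -0.19 against VDR-null, 2 members were lower in VDR-null, and the members' median stayed above that of all genes in both VDRgem comparisons, at 0.16 and 0.17. Of all genes, 256 were then lower in VDR-null against control. Without a low-count filter 5 biosynthesis genes were called in VDRgem against control, where 927 of all 33566 genes were higher and 542 lower. With only the 2 groups compared in each fit, 18 members were higher and 2 lower in VDRgem against control, and 9 higher against VDR-null. The same counts over all genes were 1022 and 950 of 17616, and 584 of 17531. At an adjusted p under 0.01, 2 members were higher and 0 lower in VDRgem against control, 0 were lower in VDR-null, and 9 were higher in VDRgem against VDR-null. Over all 17837 genes these counts were 91, 47, 1 and 554. At 0.1, 3 members were lower in VDR-null, as were 828 of all genes. Under the looser rule of the study's description, 19 members were higher and 2 lower in VDRgem against control, and 7 lower in VDR-null. The shares of all genes were 10.1%, 8.84% and 7.79%.

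With the keratinocyte covariate, 0 members were higher and 0 lower in VDRgem against control, and 0 were higher against VDR-null. The same counts over all genes were also 0. Col6a6 turned to -0.48 against control and -0.93 against VDR-null. The covariate was highest in VDRgem 1 and VDRgem 2 and lay within the control range in VDRgem 3. It overlaps with genotype in part, and that fit cannot fully separate them. With 1 surrogate variable, 0 members were higher and 0 lower in VDRgem against control, 5 were lower in VDR-null and 9 were higher in VDRgem against VDR-null, and the biosynthesis counts were 0, 6 and 2. Over all 17837 genes the counts that match those of the members were 1, 12, 1236 and 393. Without VDRgem 1 and 2 together, 0 members were higher and 0 lower in VDRgem against control and 0 higher against VDR-null, and the biosynthesis counts were 0, 6 and 0. That fit assumes that the lone VDRgem library varies like the other groups.

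Leaving out 1 library at a time gave 0 to 14 members higher and 0 to 1 lower in VDRgem against control, 0 to 2 lower in VDR-null, and 8 to 19 higher in VDRgem against VDR-null. Over all genes these ranges were 39 to 1250, 27 to 799, 1 to 401 and 321 to 2640. The count of 0 members higher came without VDRgem 1, where 39 of all genes were higher. Without control 1, 2, 3, 4 or 5 the count of members higher in VDRgem against control was 7, 5, 7, 7 or 4. Over all genes it was 452, 457, 582, 513 or 400, against 856 with every library. Biosynthesis counts ran from 0 to 11 in VDRgem against control, 0 to 6 in VDR-null against control and 1 to 19 in VDRgem against VDR-null. Without Col1a1, Col1a2 and Col3a1 the difference in collagen share was 0.413 percentage points for VDRgem minus control and 0.578 for VDRgem minus VDR-null. Both are smaller than over all members, but the share left is itself smaller, at 2.197% in control against 15.01% over all members. Of the 33 log2 ratio differences, in a test that with so few libraries can hardly pass after adjustment, 9 changed sign with 1 library left out. In VDRgem against control they ran from -0.047 to 0.017 for Col6a1/Col6a2, from -0.47 to 0.61 for Col9a3/Col9a2 and from -0.20 to 0.044 for Col11a1/Col11a2. In VDR-null against control they ran from -0.092 to 0.0018 for Col4a5/Col4a6 and from -0.20 to 0.034 for Col9a3/Col9a2. In VDRgem against VDR-null they ran from -0.48 to 0.23 for Col4a3/Col4a4, from -0.065 to 0.14 for Col8a1/Col8a2, from -0.25 to 0.49 for Col9a1/Col9a2 and from -0.39 to 0.70 for Col9a3/Col9a2.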
